A study of Mus musculus with 106 samples.

Results

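Suppressors of cytokine signalling, PIM kinases and the receptor route that controls them were followed through the founding of the mouse germ line, in single cells of 11 groups measured on Affymetrix arrays. The genes are Lifr, Il6st, Jak1, Stat3, Socs2, Socs3, Pim1, Pim2 and Pim3. They were chosen by gene symbol, with earlier results of these data known. They are 9 of the 18193 genes that had a probe set with a single symbol, and they have 29 probe sets between them. Unless another is named, each gene is given by its brightest probe set, the one with the highest mean over all cells. Levels are log2 of the deposited signal after raising low values to a floor of 6.13, and a gene counts as detected in a cell when its signal passes the 95th percentile of 126 background probe sets in that cell.

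All cells came from mouse embryos of strain C57BL/6 and were picked one by one after dissociation of dissected fragments. The wild-type germ line was represented by 8 pre-streak posterior epiblast cells positive for Oct4 and T, 7 early/mid-streak (E/MS) and 17 late-streak/0-bud (LS/0B) precursors positive for Blimp1 and Oct4, and 3 sets of 8 primordial germ cells (PGCs) positive for Blimp1 and stella, from the early/mid-bud (E/MB) stage, the early head fold (EHF) stage and embryonic day 8.25. The wild-type somatic neighbours were 10 posterior mesoderm cells from the base of the allantois at E/MB, negative for Blimp1 and positive for Oct4 and Hoxb1, and 4 cells each at E/MB and EHF positive for Blimp1, Oct4 and Hoxb1. For the EHF set of these, the titles read E/MB while the source names and descriptions read EHF. The 20 LS/0B and 12 E/MB knockout cells had the genotype Blimp1 (-/-) and were positive for Oct4 and for the non-functional transcript of the null allele. Blimp1 is a transcriptional repressor required for PGC formation.

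LIF and its relatives in the interleukin 6 family bind receptors that share the gp130 subunit, encoded by Il6st; for LIF the partner is the LIF receptor, encoded by Lifr. Receptor-bound JAK kinases such as Jak1 then phosphorylate Stat3, which enters the nucleus and switches on targets that include Socs3 and Pim1, and Socs3 in turn blocks gp130. Socs2 is best known for restraining growth hormone signalling, and the PIM kinases are serine/threonine kinases that support survival and growth. LIF keeps mouse embryonic stem cells undifferentiated and supports the survival of cultured germ cells.

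Promoters were taken from RefSeq (GRCm38.p6) and matched by symbol for 8 of the 9 genes, which have 10 promoters in the table. No promoter was matched for Socs2, so it was not searched. The motifs below were searched for in the window from 250 bases before to 50 bases after the start, on both strands. The STAT motif TTCNNNGAA was found in the Socs3 promoter and in none of the other 9 windows; 8.30% of all 32851 promoters in the table hold it. A Blimp1 motif, AGNGAAAG, was found in 0 of the 10 windows against 8.63% of all promoters. The 250 bases upstream of Socs3 are shown because they carry the match, which lies 154 to 146 bases before the start and is in capitals; those of Pim2 are shown because Pim2 differed most across stages, and they hold neither motif. Socs3 is at chr11:117969367-117969616 on the minus strand and Pim2 at chrX:7878056-7878305 on the plus strand.
Socs3: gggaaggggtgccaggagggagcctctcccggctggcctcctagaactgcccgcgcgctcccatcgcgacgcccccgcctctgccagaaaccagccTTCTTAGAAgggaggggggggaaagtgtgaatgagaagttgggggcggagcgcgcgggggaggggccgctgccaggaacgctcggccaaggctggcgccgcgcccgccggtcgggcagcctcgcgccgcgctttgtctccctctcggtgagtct
Pim2: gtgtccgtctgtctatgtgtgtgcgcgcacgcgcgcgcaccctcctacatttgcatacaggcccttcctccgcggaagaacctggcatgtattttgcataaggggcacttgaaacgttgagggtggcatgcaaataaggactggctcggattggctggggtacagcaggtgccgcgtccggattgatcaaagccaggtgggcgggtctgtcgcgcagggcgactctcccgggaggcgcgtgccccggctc

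Each array is 1 cell and which cells shared an embryo is not given, so a group counts as 1 sample, groups are not tested against each other, and every SD is a spread over cells. Differences of at least 1 log2 unit between group means are described by size alone. The 95% exact binomial (Clopper-Pearson) intervals given for shares of cells cover counting error only. The arrays fell into sets that coincide with the kind of cell. A probe set for Abca4 was detected in every cell of the wild-type germ line groups, with group means from 8.27 to 8.62, but in 0 of 4, 0 of 4, 0 of 20 and 1 of 12 cells of the Blimp1+ Hoxb1+ and knockout groups, where means were 6.19 to 6.30. A Ppp2cb probe set was detected in 4 of 4, 4 of 4, 19 of 20 and 11 of 12 cells of those groups. In the germ line groups it was detected in 2 of 7 E/MS precursors, 6 of 17 LS/0B precursors and 1 of 8 EHF PGCs, and in no epiblast cell, E/MB PGC or day 8.25 PGC. Mesoderm was mixed, with Abca4 in 6 and Ppp2cb in 8 of 10 cells. On the mesoderm arrays the hybridisation controls were brighter, at 11.39 ± 0.33 (SD, n = 10), than on all others, at 9.97 ± 0.27 (SD, n = 96), and the ranges did not overlap. Array set and cell type therefore cannot be told apart where germ line cells are set against knockout or Blimp1+ Hoxb1+ cells, or any cells against mesoderm. Knockout E/MB cells against E/MB Blimp1+ Hoxb1+ cells, the knockout groups against each other, and the wild-type germ line stages against each other did not differ in this way by Abca4. The LS/0B precursors themselves fell into 2 runs of replicate numbers, 8 cells numbered 1 to 8 and 9 cells numbered 14 to 24. None of the 8 earlier cells had detectable Xist against 8 of the 9 later ones, while Hoxb1 was found in 8 of 8 and 3 of 9, and Ppp2cb in 0 of 8 and 6 of 9. The labels give no reason for the gap in the numbers. Of the markers in the labels, Dppa3, which encodes stella, was at 11.80 to 12.06 in the 3 PGC groups and detected in 0 of 10 mesoderm cells. Hoxb1 was detected in all 10 mesoderm cells and in no PGC. Other markers were less exclusive. Prdm14, Tfap2c, Kit and Dnd1 were each detected in some mesoderm cells, Mesp1 in some PGCs of each stage, and Mixl1 in some at E/MB and EHF. Dppa3 was also detected in 4 of 12 E/MB knockout cells and in the EHF Blimp1+ Hoxb1+ group. The Blimp1 (Prdm1) probe set was detected in 12 of 20 and 9 of 12 knockout cells, which were picked for the null transcript, so it does not check the genotype. Among markers of other lineages, 5 of 8 blood and endothelial genes (Gata1, Hbb-bh1, Pecam1, Spi1 and Ptprc) were detected in no cell, and Kdr in 26. Of 6 visceral endoderm genes, Ttr, Afp and Cubn were detected in 6, 3 and 2 cells of the whole set, Amn in 8, Apoa1 in 39 and Apoa4 in 91, with Apoa4 group means of 6.81 to 7.70. Of 6 trophoblast genes, Elf5 was detected in no cell and Krt7 in 7, but Eomes in 38, Plac1 in 45, Cdx2 in 81 and Hand1 in 89; Eomes, Cdx2 and Hand1 are also expressed in the posterior embryo. The part of these markers in the results was not tested.

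Socs2 separated germ line cells from their somatic neighbours more widely than the other 8 genes. In pre-streak epiblast the lowest, median and highest cells were at 8.40, 10.55 and 11.34, in E/MS precursors at 7.31, 10.56 and 12.02, and in LS/0B precursors at 6.13, 9.68 and 11.16. In PGCs these values were 7.79, 11.25 and 11.40 at E/MB, 10.17, 10.85 and 11.55 at EHF, and 10.57, 11.06 and 11.56 at day 8.25. Socs2 was thus detected in every epiblast cell, E/MS precursor and PGC, and in 15 of 17 LS/0B precursors.

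In E/MB mesoderm Socs2 lay at the floor in 8 of 10 cells, and the highest reached 7.08. Of the 4 E/MB Blimp1+ Hoxb1+ cells, 3 were at the floor and 1 was at 8.68; of the 4 EHF cells, 3 were at the floor and 1 was at 7.39. E/MB PGCs averaged 10.62 ± 1.23 (SD, n = 8) against 6.31 ± 0.38 (SD, n = 10) in mesoderm, a difference of 4.31 log2 units with no overlap between the cells. The difference was 3.85 from E/MB Blimp1+ Hoxb1+ cells, where the ranges overlapped because the highest somatic cell exceeded the lowest PGC, and 4.50 at EHF, where they did not overlap. A second Socs2 probe set, which correlated with the first over all cells (r = 0.87), gave 2.77, 3.33 and 4.14 log2 units for these comparisons, and by it the ranges of PGCs and mesoderm did overlap. By that probe set 4 of 10 mesoderm cells had detectable Socs2 and none of the 4 EHF Blimp1+ Hoxb1+ cells did, so that the EHF difference is at least 10.1-fold when measured against the detection limit.

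**Figure D1:**
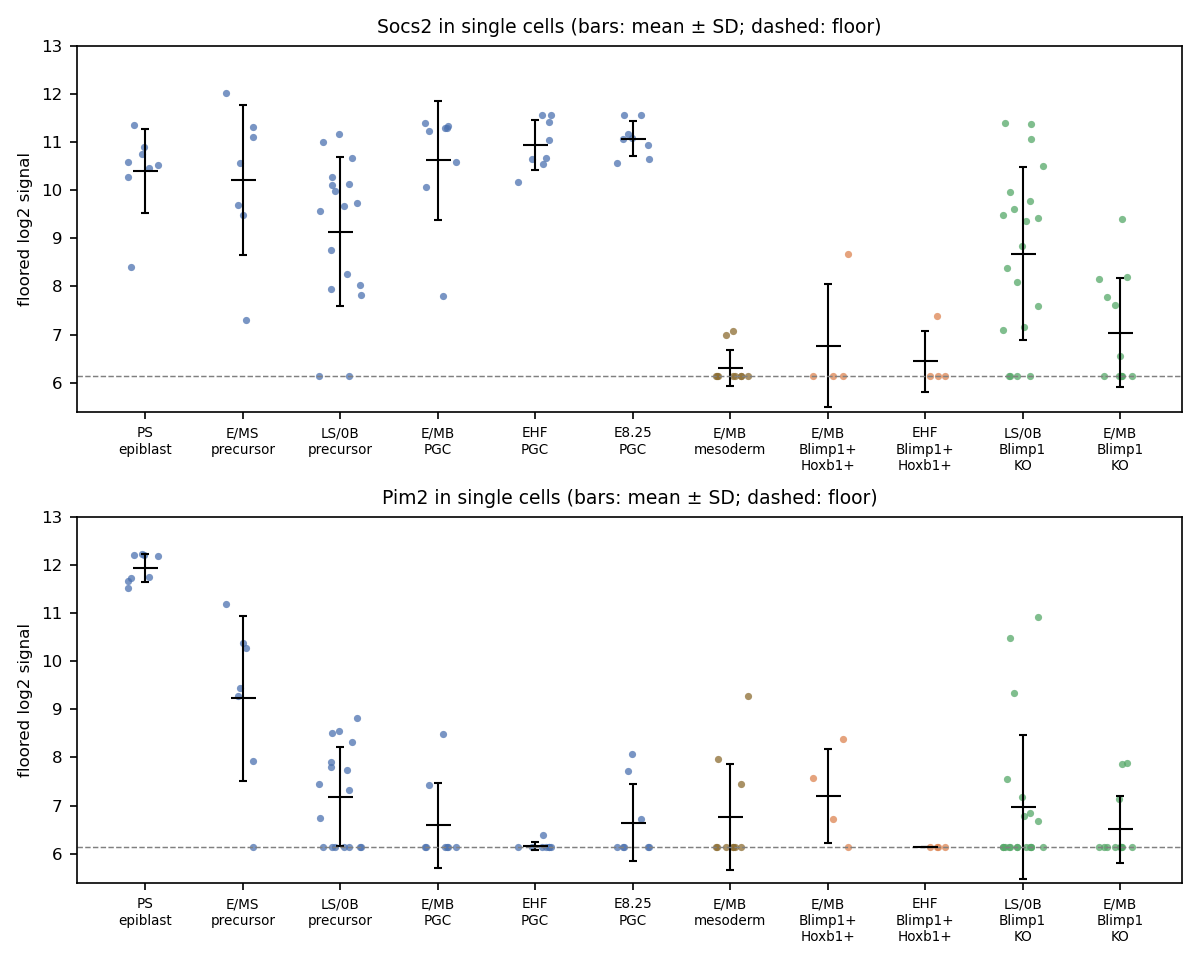
Floored log2 signal (y axis) of Socs2 (upper panel) and Pim2 (lower panel) in each cell, by group (x axis), with one point per cell, bars for the mean ± SD over cells and a dashed line at the floor of 6.13. Socs2 is at 10.17 or above in every EHF and day 8.25 PGC and at the floor in 8 of 10 mesoderm cells, and Pim2 is at 11.51 or above in every pre-streak epiblast cell and at or near the floor in most PGCs.

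Without Blimp1, Socs2 was lower at the bud stage. LS/0B knockout cells ranged from 6.13 through a median of 9.10 to 11.39, with detection in 16 of 20, and E/MB knockout cells from 6.13 through 6.34 to 9.39, with detection in 5 of 12 (interval 15.2% to 72.3%). The E/MB knockout mean of 7.04 ± 1.13 (SD, n = 12) was 3.58 log2 units below E/MB PGCs and 1.64 below LS/0B knockout cells, and it was 0.27 above E/MB Blimp1+ Hoxb1+ cells. In the wild-type lineage the step over the same stages ran the other way, with E/MB PGCs 1.49 above LS/0B precursors. No E/MB PGC had Xist, and the step was 2.50 once precursors with Xist were left out. It was 2.70 against the precursors numbered 1 to 8 and 0.40 against those numbered 14 to 24. Hoxb1 was detected in all 12 E/MB knockout cells and in none of the 8 E/MB PGCs, and its part in the Socs2 difference was not tested.

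The 17 LS/0B precursors were not alike in Socs2. Xist was detected in 8 of them, and these held Socs2 at 10.28 ± 0.59 (SD, n = 8), against 8.12 ± 1.40 (SD, n = 9) in the others. The split nearly coincides with the runs of replicate numbers, in which Socs2 was at 7.92 ± 1.35 (SD, n = 8) in cells numbered 1 to 8 and 10.22 ± 0.58 (SD, n = 9) in those numbered 14 to 24. Replicate 16, the only cell without Xist in the later run, was at 9.73. With 1 such cell, Xist and the run of numbers cannot be told apart. Over the 17 cells Socs2 had a Pearson r of 0.53 with Sox2, 0.52 with Dppa3 and -0.54 with Hoxb1, given as a description of cells from a shared stage. All 7 cells with detectable Sox2 and all 8 with detectable Dppa3 had detectable Socs2, and of the 8 cells with Xist 6 lacked Hoxb1. Xist, the run of numbers, Hoxb1 and the germ cell genes move together in these cells, and their parts in the Socs2 difference were not tested. In LS/0B knockout cells the corresponding r values were -0.10 for Sox2 and 0.25 for Hoxb1 (n = 20). The comparison of LS/0B knockout with wild-type precursors depends on this split: the mean difference in Socs2 was -0.46, and it was 0.56 once cells with Xist were left out. It was 0.76 against precursors numbered 1 to 8 and -1.54 against those numbered 14 to 24. The step from E/MS to LS/0B precursors was -1.07 with all cells and -2.09 without those with Xist, and it was -2.29 with the run numbered 1 to 8 and 0.010 with the run numbered 14 to 24. It was -0.77 without E/MS replicate 2, the highest E/MS cell at 12.02, and -1.56 without E/MS replicate 6, the lowest at 7.31.

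**Figure D2:**
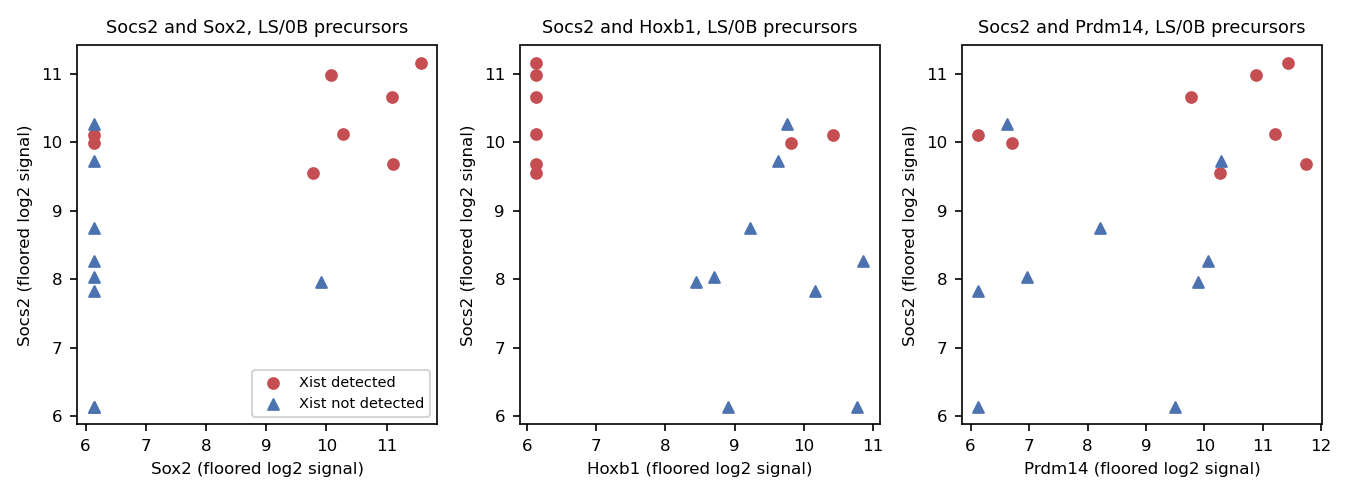
Floored log2 signal of Socs2 (y axes) against Sox2, Hoxb1 and Prdm14 (x axes, left to right) in the 17 LS/0B precursors, with circles for the 8 cells with Xist and triangles for the 9 without. Socs2 is at 9.56 or above in every circle, 6 of the circles sit at the Hoxb1 floor of 6.13, and the triangles spread from the floor to 10.26.

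Socs3, the feedback inhibitor of gp130, was scarce. It was detected in 15 cells of the whole set (14.2%), 5 of them LS/0B precursors, and group means ran from 6.13 to 6.80. No epiblast cell, E/MS precursor, EHF PGC or day 8.25 PGC had detectable Socs3, and 0 of 8 cells allows a share of up to 36.9%. Of the 3 Socs3 probe sets on the array, the next brightest was detected in 12 cells. With so few cells above detection, no difference between groups is described for Socs3.

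Lifr, the LIF receptor subunit, had higher means in precursors, knockout cells and Blimp1+ Hoxb1+ cells than in PGCs. It was detected in 3 of 8 epiblast cells, with a median at the floor and a highest cell at 10.46, and in 6 of 7 E/MS precursors, with a median of 9.43 and a highest cell at 10.65. LS/0B precursors ran from the floor through 9.02 to 11.27 with detection in 11 of 17. In E/MB PGCs it was detected in 2 of 8 cells, at most 8.89, and in 4 of 8 PGCs at each of EHF and day 8.25, at most 9.97 and 10.17. The 4 E/MB Blimp1+ Hoxb1+ cells were at 8.56, 8.99, 9.05 and 10.10, and the 4 EHF cells at 6.13, 8.99, 9.17 and 10.49. Mesoderm cells ran from the floor through 7.86 to 9.45 with detection in 6 of 10. Their mean was close to that of day 8.25 PGCs.

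The Lifr mean was 1.56 log2 units higher in E/MS precursors than in epiblast and 1.70 lower in E/MB PGCs than in LS/0B precursors. The latter difference was -2.44 without precursors with Xist, -2.33 against those numbered 1 to 8 and -1.14 against those numbered 14 to 24. Lifr was 2.41 lower in E/MB PGCs than in E/MB Blimp1+ Hoxb1+ cells, and at EHF the difference was -1.52, which became -0.93 without EHF Blimp1+ Hoxb1+ replicate 1. The ranges overlapped in each of these comparisons. The array-wide median of broadly detected genes was 0.16 higher in E/MB PGCs than in mesoderm, and the Lifr difference of -0.94 there reached 1 log2 unit or more in size when arrays were scaled by that median, by quantiles or by the lys controls. In knockout cells Lifr was detected in 18 of 20 at LS/0B (interval 68.3% to 98.8%) and in 9 of 12 at E/MB. The E/MB knockout mean of 8.46 ± 1.77 (SD, n = 12) was 1.70 above E/MB PGCs and 0.70 below E/MB Blimp1+ Hoxb1+ cells. LS/0B knockout cells were 0.92 above wild-type precursors, and 0.18 above those without Xist, since LS/0B precursors with Xist averaged 7.63 and those without 9.20. Against the precursors numbered 1 to 8 the difference was 0.29, and against those numbered 14 to 24 it was 1.49. The other 2 Lifr probe sets were detected in 4 cells and 1 cell of the whole set and give no second reading.

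Il6st, encoding gp130, was read by 2 probe sets that did not track each other (r = -0.08 over all cells). The brightest was detected in every cell and barely varied, with group means from 8.14 to 8.71 and an SD over all cells of 0.30; only 2.14% of 1029 genes of like level had a smaller SD. The second varied as the other members did. By it, Il6st was detected in 3 of 8 epiblast cells, 7 of 7 E/MS and 14 of 17 LS/0B precursors, 6 of 8 PGCs at each stage and 6 of 10 mesoderm cells. All 8 Blimp1+ Hoxb1+ cells and all 20 LS/0B knockout cells had it, but only 6 of 12 E/MB knockout cells. By the second probe set the mean was 1.49 log2 units higher in E/MS precursors than in epiblast, and 1.82 lower in E/MB knockout cells, at 7.39 ± 1.38 (SD, n = 12), than in LS/0B knockout cells, at 9.21 ± 0.80 (SD, n = 20). It was 1.21 lower in E/MB knockout than in E/MB Blimp1+ Hoxb1+ cells. Which of the probe sets reads the transcript better was not tested.

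Jak1, a tyrosine kinase bound to gp130, was highest in the Blimp1+ Hoxb1+ cells. The E/MB cells were at 7.49, 8.64, 10.16 and 10.90 and the EHF cells at 7.46, 8.68, 9.61 and 9.78. In the 6 germ line groups the medians were 7.15 in epiblast, 7.16 and 7.34 in precursors, and 7.86, 6.13 and 7.44 in PGCs from E/MB to day 8.25. E/MB PGCs were 1.74 log2 units below E/MB Blimp1+ Hoxb1+ cells and EHF PGCs 2.09 below their EHF counterparts, with overlapping ranges both times. A second Jak1 probe set gave -0.69 and -1.55. Jak1 was detected in 6 of 10 mesoderm, 16 of 20 LS/0B knockout and 10 of 12 E/MB knockout cells.

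Stat3, the transcription factor downstream, was near background in most cells and was detected in 35 cells of the whole set (33.0%). It was detected in 0 of 8 epiblast cells, 4 of 7 E/MS and 2 of 17 LS/0B precursors, and in 1, 2 and 5 of 8 PGCs at E/MB, EHF and day 8.25. Day 8.25 PGCs ran from the floor through 7.87 to 9.32. Their mean of 7.47 ± 1.20 (SD, n = 8) was 1.09 above epiblast, and the difference was 0.82 without day 8.25 replicate 2. It also fell short of 1 log2 unit with the floor at the 99th percentile or with the mean of all probe sets. The other Stat3 probe sets were detected in 0, 4 and 1 cells of the whole set and give no second reading. At the stricter 99th percentile of background, 13 cells passed for Stat3, 5 of them day 8.25 PGCs.

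**Figure D3:**
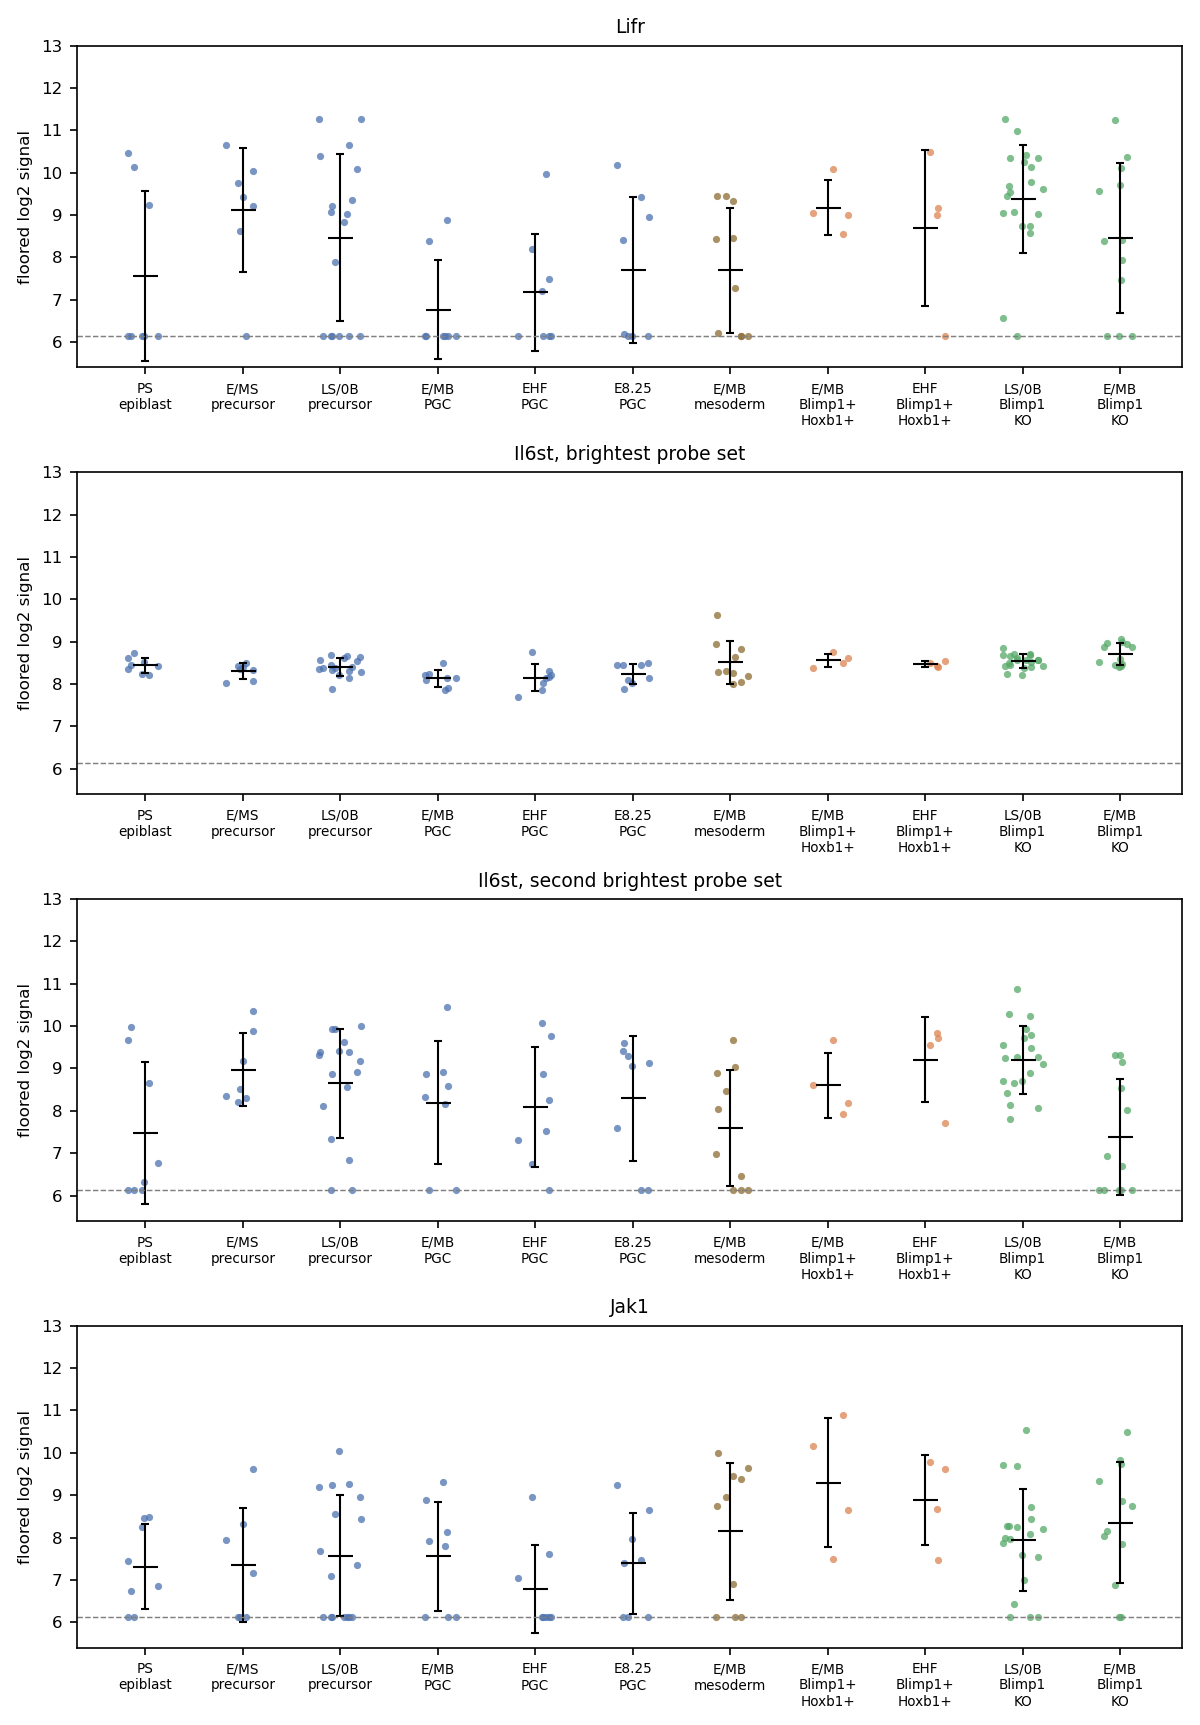
Floored log2 signal (y axes) of Lifr, the brightest and the second brightest probe sets of Il6st, and Jak1 (panels from top to bottom) in each cell, by group (x axes), with bars for the mean ± SD over cells and a dashed line at the floor of 6.13. Lifr is at the floor in 6 of 8 E/MB PGCs and 1 of 20 LS/0B knockout cells, the brightest Il6st probe set stays between group means of 8.14 and 8.71, and all 8 Blimp1+ Hoxb1+ cells have detectable Jak1.

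Read together in single cells, the receptor pair depended on the Il6st probe set. By the brightest, which was detected in every cell, the pair was present wherever Lifr was. That made 70 cells of the whole set, among them 3 of 8 epiblast cells, 11 of 17 LS/0B precursors, 2, 4 and 4 of 8 PGCs from E/MB to day 8.25, and 9 of 12 E/MB knockout cells. With Jak1 as well there were 52, with Stat3 too 23, and with Socs3 on top 2. Lifr and the second Il6st probe set were detected together in 56 cells of the whole set (interval 42.9% to 62.6%), with Jak1 as well in 43, with Stat3 too in 20, and with Socs3 on top in 1. By the second probe set the pair was present in 1 of 8 epiblast cells, 6 of 7 E/MS and 8 of 17 LS/0B precursors, and in 1, 2 and 3 of 8 PGCs from E/MB to day 8.25. In the knockout it was present in 18 of 20 LS/0B cells and 5 of 12 E/MB cells. All 4 E/MB and 3 of 4 EHF Blimp1+ Hoxb1+ cells had the pair by either probe set. Absence from a cell here means below detection after amplification from 1 cell, and not that the transcript was missing. By the brightest Socs2 probe set, Socs2 without Lifr was found in 6 of 8 E/MB PGCs and in 0 of 10 mesoderm cells. Lifr without Socs2 was found in 0 of 8 and 5 of 10. Within the epiblast, precursors and PGCs, Lifr without Socs2 was found by this probe set in 2 cells, both LS/0B precursors. The second Socs2 probe set divided the cells differently, and by it mesoderm replicates 6 and 7 had Socs2 without Lifr.

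Pim2, an X-linked PIM kinase gene with 1 probe set on the array, was the mark of the earliest stage. Epiblast cells lay between 11.51 and 12.21 with a median of 11.97. E/MS precursors ran from 6.13 through 9.44 to 11.19, and LS/0B precursors from 6.13 through 7.32 to 8.82. In PGCs it was detected in 2 of 8, 0 of 8 and 2 of 8 cells from E/MB to day 8.25, with highest cells at 8.49, 6.39 and 8.06. Every epiblast cell was above every E/MS precursor, and the mean was 2.70 log2 units lower in E/MS precursors, a further 2.05 lower in LS/0B precursors, and 5.28 lower in day 8.25 PGCs than in epiblast. These gaps between epiblast, E/MS precursors and the next group exceeded the SDs of the groups on either side. The difference between E/MS precursors and epiblast was -2.18 without E/MS replicate 7, which was at the floor.

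Outside the germ line Pim2 was low as well, detected in 3 of 10 mesoderm cells, 3 of 4 E/MB and 0 of 4 EHF Blimp1+ Hoxb1+ cells, 7 of 20 LS/0B knockout and 3 of 12 E/MB knockout cells. The highest Pim2 outside the epiblast and E/MS precursors, 10.92, was in an LS/0B knockout cell, and within that group Pim2 had a Pearson r of 0.63 with Sox2 (n = 20), against 0.15 in wild-type LS/0B precursors (n = 17). Xist was detected in 8 of 8 epiblast cells, 0 of 7 E/MS precursors and 0 of 8 day 8.25 PGCs. Sex or X state therefore moves with both differences from epiblast, and its part was not tested. In LS/0B precursors, where both kinds of cell were present, Pim2 was at 7.23 ± 1.10 (SD, n = 8) with Xist and 7.14 ± 1.02 (SD, n = 9) without.

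Pim1, a textbook Stat3 target, was present at most stages. It was detected in 6 of 8 epiblast cells, 2 of 7 E/MS and 14 of 17 LS/0B precursors, 7, 7 and 8 of 8 PGCs, 9 of 10 mesoderm cells, all 8 Blimp1+ Hoxb1+ cells, and 17 of 20 and 9 of 12 knockout cells. Day 8.25 PGCs ran from 8.45 through 9.44 to 10.57 and epiblast cells from 6.13 through 7.61 to 9.55, with means 1.66 apart. LS/0B precursors were 1.37 above E/MS precursors, a difference that was 0.88 with the run numbered 1 to 8 and 1.82 with the run numbered 14 to 24. The other Pim1 probe set gave -0.23 and -0.068 for these steps, and it varied little, with an SD over all cells of 0.45, so neither difference was seen by both. Within LS/0B precursors Pim1 had a Pearson r of -0.62 and a Spearman rho of -0.76 with Hoxb1 (n = 17).

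Pim3, the third kinase of the family, was detected in 84 cells (79.2%), and its means in the germ line groups ran from 7.22 in E/MS precursors to 8.42 in day 8.25 PGCs. Its highest mean was in E/MB knockout cells, at 8.94 ± 1.23 (SD, n = 12), where it was detected in 11 of 12. That was 1.36 log2 units above mesoderm and 0.92 above E/MB PGCs, with overlapping ranges, and 0.57 above E/MB Blimp1+ Hoxb1+ cells. By its second probe set the mesoderm difference was 0.45. Over all groups, 1 cell had no detectable PIM gene, an LS/0B knockout cell, and 27 had all 3.

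**Figure D4:**
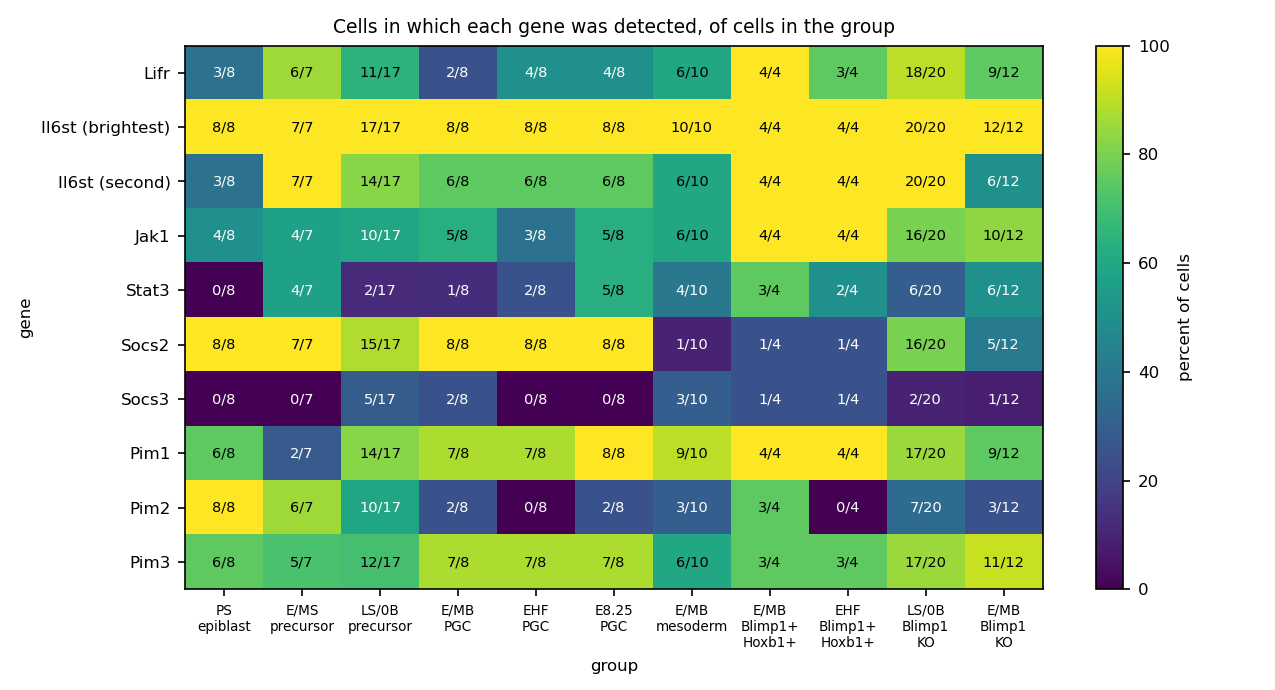
Number of cells in which each gene was detected, of the cells in each group (x axis), with the percentage of cells as colour from 0 to 100 and a row for each gene (y axis), both probe sets being shown for Il6st. Socs2 is detected in 8 of 8 PGCs at each stage and in 1 of 10 mesoderm cells, while Pim2 goes from 8 of 8 in epiblast to 0 of 8 in EHF PGCs.

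Counted over the whole set, 3 of the 9 genes differed by at least 1 log2 unit between day 8.25 PGCs and epiblast, Stat3 and Pim1 upward and Pim2 downward, against 10% of all genes. Between neighbouring stages the counts were 2 of 9 from epiblast to E/MS (5.6% of all genes), 3 of 9 from E/MS to LS/0B (2.95%) and 2 of 9 from LS/0B to E/MB PGCs (5.62%). The last was 1 of 9 from the precursors numbered 14 to 24, for which the share of all genes was not counted. From E/MS to LS/0B the 3 genes were Pim1, higher, and Socs2 and Pim2, lower. Of these, Socs2 fell short of 1 log2 unit with the precursors numbered 14 to 24, where Lifr passed it. Pim1 fell short with those numbered 1 to 8. From E/MB to EHF and from EHF to day 8.25 the counts were 0 of 9 (4.17% and 3.25%). The medians over the 9 genes were 0.13 from epiblast to day 8.25 and between -0.14 and 0.42 for the single steps, beside 0 over all genes each time. The few genes and the wide spread between cells leave these counts as a description.

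At the bud and head fold stages, 1 of 9 genes (Socs2, higher) passed 1 log2 unit between PGCs and mesoderm, against 12.1% of all genes. There were 3 of 9 at each stage between PGCs and Blimp1+ Hoxb1+ cells, namely Socs2 higher and Lifr and Jak1 lower in PGCs, against 10.7% at E/MB and 12.5% at EHF. The median over the 9 genes was -0.17 for mesoderm, -0.42 for E/MB and -0.32 for EHF Blimp1+ Hoxb1+ cells. The comparisons with mesoderm, with E/MB Blimp1+ Hoxb1+ cells and with the E/MB knockout share the same 8 E/MB PGCs.

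In the knockout, 0 of 9 genes passed 1 log2 unit between LS/0B knockout and wild-type LS/0B cells, against 1.45% of all genes. Against the precursors numbered 14 to 24 alone 2 of 9 did, and the share of all genes was not counted for that subset. Between E/MB knockout cells and E/MB PGCs 2 of 9 did (7.61%), Lifr higher and Socs2 lower. Against mesoderm 1 of 9 did (Pim3, 8.17%), and against E/MB Blimp1+ Hoxb1+ cells 0 of 9 (4.4%). Between the knockout stages Socs2 alone did, 1 of 9 against 1.22%.

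**Figure D5:**
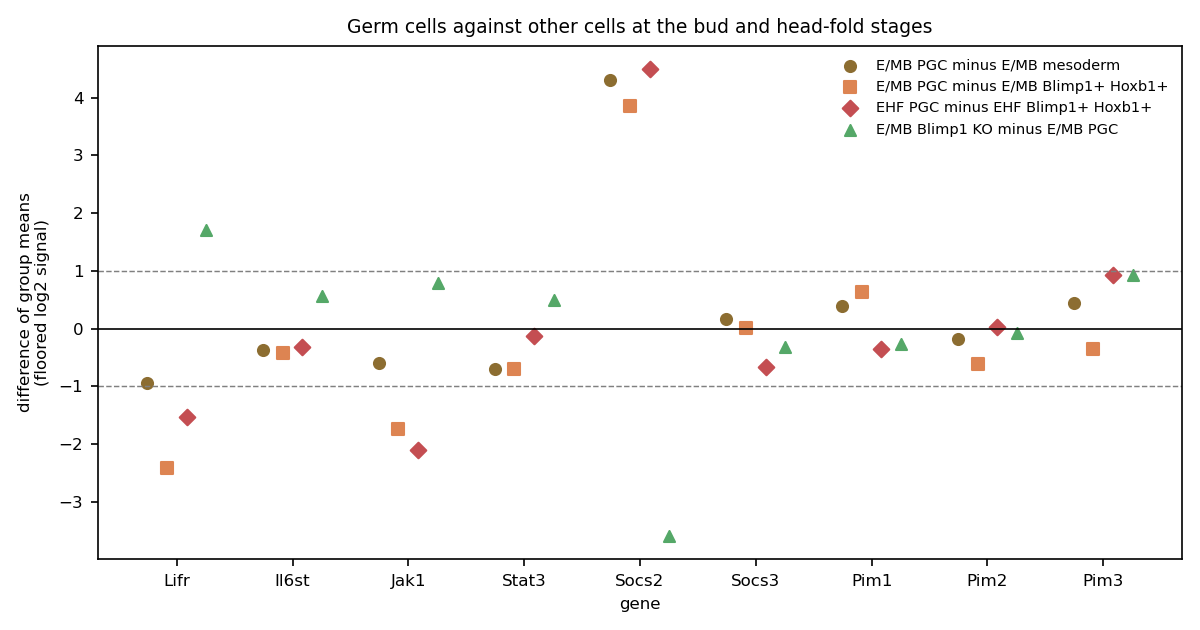
Difference of group means in floored log2 signal (y axis) for each of the 9 genes (x axis) in 4 comparisons at the bud and head fold stages, with dashed lines at 1 log2 unit either way. Socs2 is 3.85 to 4.50 higher in PGCs than in wild-type somatic cells and 3.58 lower in E/MB knockout cells than in E/MB PGCs, and Lifr is 0.94 to 2.41 lower in PGCs than in wild-type somatic cells and 1.70 higher in E/MB knockout cells than in E/MB PGCs.

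Around these genes, 52 of 59 listed pathway genes were measured. Ligands were almost absent from the cells themselves: Il6, Il11 and Osm were detected in no cell, Lif in 3 and Ctf1 in 18 cells of the whole set. Of the other receptors of the family, Osmr was detected in no cell, Il6ra in 4 and Cntfr in 64. Ptpn11, which encodes the phosphatase SHP2 that binds gp130, was detected in every cell with group means from 10.09 to 11.18. From epiblast to day 8.25, 7 of the 52 were at least 1 log2 unit higher (Gbx2, Jak2, Klf5, Pias3, Pias4, Tfcp2l1 and Tyk2; 4.9% of all genes were) and 2 were lower (Myc and Ptpn2; 5.12% of all genes). Of the 9 listed targets of LIF and Stat3 in stem cells, Klf5, Gbx2 and Tfcp2l1 passed this size upward and Myc downward. The others did not pass it. Klf5, Gbx2 and Tfcp2l1, which LIF and Stat3 maintain in embryonic stem cells, were detected in 0 of 8 epiblast cells each and in 7, 7 and 6 of 8 day 8.25 PGCs. Their differences of 2.70, 2.24 and 1.50 log2 units are limited by the floor. Klf5 was detected in 11 of 17 LS/0B precursors, while Tfcp2l1 was detected in 0 of 8 PGCs at E/MB and 4 of 8 at EHF.

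Myc, another target of Stat3 in stem cells, ran the other way. It was detected in 8 of 8 epiblast cells at 9.13 ± 0.86 (SD, n = 8), in 6 of 7 E/MS and 10 of 17 LS/0B precursors, and in 0 of 8 PGCs at each stage. All 20 LS/0B knockout cells, 11 of 12 E/MB knockout cells, 7 of 10 mesoderm cells and all 4 E/MB Blimp1+ Hoxb1+ cells had it. The E/MB knockout mean of 9.59 ± 1.52 (SD, n = 12) was 3.45 above E/MB PGCs, a difference also limited by the floor. Myc was also 1.28 higher than in mesoderm, and LS/0B knockout cells were 1.72 above wild-type LS/0B precursors.

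Among the other SOCS genes, Socs5 came closest to Socs2 at the bud stage. It was detected in 7 of 8 PGCs at each stage, in 3 of 10 mesoderm cells and in 1 of 4 Blimp1+ Hoxb1+ cells at either stage. E/MB PGCs were 2.25 log2 units above mesoderm, 2.60 above E/MB Blimp1+ Hoxb1+ cells and 1.77 above E/MB knockout cells. In epiblast, where Socs2 was high, Socs5 was detected in 5 of 8 cells and in E/MS precursors in 1 of 7. Socs7 was 1.91 higher in E/MB PGCs than in mesoderm and 1.44 lower in E/MB knockout cells than in E/MB PGCs. Socs1 was detected in 3 cells of the whole set. Between E/MB knockout cells and E/MB PGCs, 4 of the 52 pathway genes were higher (Ghr, Ifnar1, Myc and Ptpn1; 4% of all genes) and 3 lower (Klf5, Socs5 and Socs7; 3.61%). Ghr, which encodes the growth hormone receptor that Socs2 restrains, was detected in 11 of 12 E/MB knockout cells and 4 of 8 E/MB PGCs, with a difference of 1.56, and was 2.41 above mesoderm.

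Likeness was measured by Pearson r over all cells among 10891 genes detected in at least 10 cells. The genes most like Socs2 were Sox2 (r = 0.63), a pluripotency factor required for PGCs, Sh2b1 (0.62), an adaptor of cytokine and growth factor receptors, and Uqcrb (0.61), a subunit of respiratory complex III. Those most like Pim2 were Slc7a3 (0.74), a cationic amino acid transporter, Cda (0.67), cytidine deaminase, and Psors1c2 (0.66). For Lifr they were Gata6 (0.55), an endoderm and mesoderm transcription factor, Cyp26a1 (0.51), which degrades retinoic acid, and Ppic (0.51), and for Jak1 Morc4 (0.55), Hmga2 (0.48) and Igf2 (0.47). For Pim1, Pim3 and Stat3 no r exceeded 0.41. The brightest Il6st probe set was most like 9430078G10Rik (0.63), Cks1b (0.61) and Serpina3i (0.57). The cells share their stage within a group, and the array sets largely follow the groups, so r is a description here. Between the 9 genes themselves, the r most distant from 0 was -0.45, for Socs2 and the brightest Il6st probe set, and it was -0.17 once group means were removed; Stat3 and Jak1 had 0.32 and 0.34.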

How the data were processed

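The deposited values are MAS5 signal intensities, per the submitters' processing notes, for 45101 probe sets on arrays of the amplified cDNA of 1 cell each; MAS5 scales arrays to a common level, and amplification from 1 cell adds dropout. Intensity was floored at 70.2, the median over cells of the 90th percentile of 126 background probe sets (olfactory, vomeronasal, taste receptor and keratin-associated genes), and log2 transformed. Detection limits per cell were 82.8 to 166. Of the probe sets, 34945 had 1 symbol, 932 several and 9160 none. Differences are of group means with SDs over cells, in Python 3.11.15 (numpy 2.4.6, pandas 2.3.3); the script was checked on simulated data with known shifts. Alternatives changed the floor, scaling, probe set, cells and average. The array number and signal limit precision. The 9 genes and the lists were chosen with earlier results of these data known. Named besides them were pathway genes that passed detection in 50% or more of either group and differed by at least 1 log2 unit, and the 3 genes most correlated with each; pathway and marker genes given as detection counts were picked for their roles.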

Additional observations from a re-analysis of the deposited data

Results flagged for a closer look

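In groups of 4 to 10 cells, 8 cells stood apart from the rest of their group by Dixon's criterion, out of 68 gene and group sets with a spread. The usual rate of about 1 in 20 assumes normal values. Many values here lie at the floor, so that rate gives no expected count. Socs2 was low in pre-streak epiblast replicate 8, at 8.4 with the nearest cell at 10.28, and in E/MB PGC replicate 4, at 7.79 with the nearest at 10.07. Socs2 was high in E/MB Blimp1+ Hoxb1+ replicate 3, at 8.68, and in EHF Blimp1+ Hoxb1+ replicate 3, at 7.39, with all other cells of both groups at the floor. Socs3 was high in epiblast replicate 3, at 6.53, below detection. Stat3 was high in E/MB PGC replicate 5, at 8.23, Pim2 in EHF PGC replicate 3, at 6.39, and Pim3 was low in EHF PGC replicate 2, at 6.13. For 4 of the 8, every other cell of the group was at the floor, where any single value above it meets the criterion.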

How the results depend on the processing

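Of 183 alternative values of the 21 differences of at least 1 log2 unit, 177 kept their direction and 144 stayed at or above 1. Pim2 has 1 probe set, so its values could not change when probe sets were averaged or the next brightest was taken. Of 3 reversals, 2 were Pim1 by its other probe set, at -0.23 for day 8.25 PGCs against epiblast and -0.068 for LS/0B against E/MS precursors, and 1 was Socs2 at 0.010 for LS/0B precursors numbered 14 to 24 against E/MS precursors, a split chosen after seeing the data; the cause was not tested. That split moved the count to 1 for E/MB PGCs against LS/0B and to 2 for LS/0B knockout. Counts of the 9 genes past 1 log2 unit are given in the order of the report (day 8.25 against epiblast, E/MS, LS/0B, E/MB, EHF and day 8.25 each against the stage before, PGCs against mesoderm, E/MB and EHF Blimp1+ Hoxb1+ cells, LS/0B knockout, then E/MB knockout against PGCs, mesoderm, Blimp1+ Hoxb1+ and LS/0B knockout cells) where they moved. The share of all genes was counted only with the main settings, so the counts under the alternatives have no background beside them. With no floor the counts were 6, 6, 4, 3, 4, 5, 6, 5, 1, 6, 3, 4 and 3, all but E/MS having moved. With the floor at the 99th percentile they were 1 for the first 4, for EHF Blimp1+ Hoxb1+ cells and for E/MB knockout against PGCs, and 0 for E/MB knockout against mesoderm and LS/0B knockout. The mean of all probe sets gave 1, 1, 1 and 0 for the first 4, the 1 being Pim2, which it cannot change. It gave 1 for E/MB Blimp1+ Hoxb1+ cells and E/MB knockout against PGCs, and 0 for the same last ones. The next brightest probe set, chosen after seeing the data, gave 1 for day 8.25, E/MB, E/MB Blimp1+ Hoxb1+ cells and E/MB knockout against PGCs and against Blimp1+ Hoxb1+ cells, 0 against mesoderm and 2 against LS/0B knockout. Group medians gave 4 for E/MS, 1 for EHF, 2 for day 8.25 against EHF, 2 for mesoderm, 6 for E/MB Blimp1+ Hoxb1+ cells, 1 for LS/0B knockout, and 1 and 2 for E/MB knockout against Blimp1+ Hoxb1+ and LS/0B knockout cells. Scaling by medians or quantiles gave 2 for mesoderm; scaling to the lys controls gave 3 there, 5 for E/MB knockout against PGCs and 2 against Blimp1+ Hoxb1+ cells, and shifted the median of 7250 broadly detected genes to -0.39, 0.61 and 0.80 in these. Without each cell in turn the counts ran 2 to 3, 2 to 3, 2 to 4, 2 to 2, 0 to 1, 0 to 1, 1 to 2, 3 to 4, 3 to 4, 0 to 1, 2 to 4, 1 to 1, 0 to 2 and 1 to 2. Over these alternatives Socs2 stayed at least 1.29 above mesoderm and Pim2 at least 3.76 lower in day 8.25 PGCs than in epiblast. At the 99th percentile of background, detection fell from 78 to 61 cells for Socs2, 70 to 62 for Lifr, 44 to 25 for Pim2 and 15 to 5 for Socs3. No paired analysis was possible because replicate numbers only name cells within a group.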

Other observations

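Prdm14, a germ cell transcription factor, and Lifr had a Pearson r of -0.72 over the 12 E/MB knockout cells (Spearman rho -0.77), against -0.099 over the 20 LS/0B knockout cells and -0.15 over the 17 wild-type LS/0B precursors; these were picked among many pairs after their values were seen. Jak3 was detected in 9 cells of the whole set, 4 of them EHF PGCs and none of them a knockout, mesoderm or Blimp1+ Hoxb1+ cell.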
